A study of Mus musculus with 6 samples.

Results

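The genes described here make, sense or remove extracellular adenosine and the purine nucleosides derived from it. They were the 10 rows of the count table whose symbol was Entpd1, Nt5e, Adora1, Adora2a, Adora2b, Adora3, Ada, Adk, Pnp or Pnp2, of 54532 genes in all. RNA came from the lungs of 3 GR+/+ and 3 GRdim/dim mice (129/SvEv x C57BL/6 background), with 1 poly(A)-captured library per mouse. In GRdim/dim mice, 1 amino acid of the glucocorticoid receptor (GR) is exchanged within the part that binds DNA, which impairs receptor dimerization throughout the body, and GR+/+ mice were littermates with the intact receptor. All 6 mice, aged 10 to 16 weeks, were anesthetized and ventilated and went through hemorrhagic shock (HS). Blood was withdrawn to a mean arterial pressure of 35 mmHg for 1 h, and re-transfusion and 4 h of intensive care with fluids and norepinephrine followed. No mouse without shock was among the libraries, so the comparison is between genotypes after HS and not between HS and rest. Per the study's methods, 2 GR+/+ mice and 1 GRdim/dim mouse were female, while the labels leave sex unstated for each library.

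Stressed and injured cells release ATP, which acts on P2X and P2Y receptors. The ectonucleotidases CD39, encoded by Entpd1, and CD73, encoded by Nt5e, convert it on the cell surface to adenosine. Adenosine acts on 4 G protein-coupled receptors, of which those encoded by Adora1 and Adora3 lower cyclic AMP and those encoded by Adora2a and Adora2b raise it. The signal ends when adenosine is taken up and phosphorylated to AMP by adenosine kinase (Adk), or deaminated to inosine by adenosine deaminase (Ada), after which purine nucleoside phosphorylase (Pnp) splits inosine and guanosine into a base and ribose 1-phosphate. In the lung, this route is known for its part in the vascular barrier and in the restraint of leukocytes.

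The 6 libraries held 15687734 to 32082940 counts, of which 1.15% to 1.76% fell on mitochondrial genes. Markers of alveolar type 2 cells summed to 16810 to 25003 CPM (counts scaled to a library total of 1000000) per library, so the defining markers of lung epithelium were present in all 6. Nr3c1, the gene of GR, had 148 ± 12.2 CPM in GR+/+ lungs and 143 ± 20.2 CPM in GRdim/dim lungs (SD, n = 3 each; log2 fold change -0.05, SE 0.17). Counts per gene do not show a point mutation, so this does not check the genotype labels. CPM values were scaled with edgeR's TMM factors. A gene was called differentially expressed (DEG) where the adjusted p of edgeR's quasi-likelihood test over the 16568 genes tested was below 0.05 and the log2 fold change, given as GRdim/dim against GR+/+, was over 0.5 in size. In this bulk tissue, fewer cells of a type and less RNA per cell cannot be told apart.

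All 10 members passed the filter on low counts. By edgeR, 0 of the 10 were DEGs, beside 28 of all genes tested (0.169%, with 0.0724% higher and 0.0966% lower in GRdim/dim lungs). At an unadjusted p below 0.05, 2 members were higher in GRdim/dim lungs, Pnp and Ada, and 0 were lower, beside 9.60% of all genes, 4.91% higher and 4.68% lower. DESeq2 called 1 member, Pnp, in the higher direction, beside 1.70% of the genes to which it gave an adjusted p (0.817% higher and 0.879% lower). For 3 of the 10, Adora3, Ada and Pnp, every GRdim/dim library was above every GR+/+ library, and for 0 every one was below. Of all genes tested, 14.8% were without overlap, 7.77% higher and 7.05% lower. The log2 fold change was above 0 for 7 members and below 0 for 3, and its median was 0.27, beside 50.9% above 0 and a median of 0.01 over all genes. By role, the median was -0.16 for the 2 ectonucleotidases, 0.30 for the 4 receptors and 0.52 for the 4 intracellular enzymes. These medians of few genes were not tested.

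**Figure D1:**
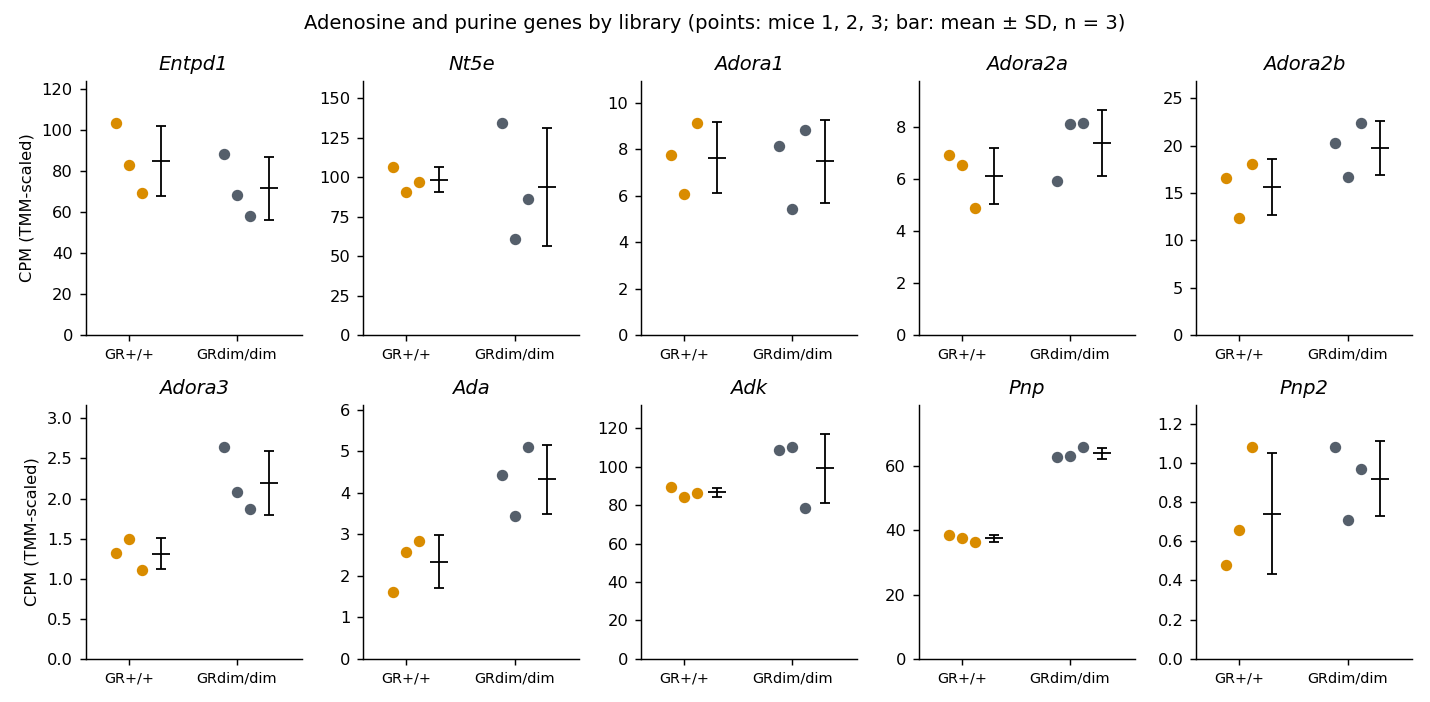
CPM of the 10 members in each of the 6 libraries, 1 panel per gene with its own axis from 0, with a point for each mouse and, beside the points, the mean ± SD of 3. The GRdim/dim points lie above all GR+/+ points for Adora3, Ada and Pnp, and the genotypes overlap in the other panels.

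Purine nucleoside phosphorylase was the member with the smallest p. Pnp (ENSMUSG00000115338; GRCm38 chr14:50931082-50965237, plus strand) had 38.7, 37.6 and 36.4 CPM in GR+/+ replicates 1, 2 and 3 (647, 627 and 1145 counts). It had 62.8, 63.3 and 66.0 CPM in GRdim/dim replicates 1, 2 and 3 (1165, 1523 and 1022 counts). All 3 GRdim/dim lungs were above all 3 GR+/+ lungs, and the gap between the genotypes was wider than the range within either. The means were 37.5 ± 1.15 and 64.0 ± 1.72 CPM (SD, n = 3 each). The fold change was 1.71 (95% interval 1.35 to 2.16; log2 0.77, SE 0.15). edgeR's p was 0.000489 before adjustment, rank 71 of the 16568 genes, and 0.114 after it, which did not pass. DESeq2 gave the same log2 fold change, 0.77, with an adjusted p of 0.0101, which passed. With 1 library left out at a time, the log2 fold change stayed between 0.75 and 0.80, and DESeq2 called Pnp in 2 of 6 such fits (adjusted p 0.00636 to 0.0987) and edgeR in 0 of 6 (0.138 to 0.337). DESeq2 kept the call without GRdim/dim replicate 1 (0.0385) or 3 (0.00636) and lost it without GR+/+ replicate 1 (0.0812), 2 (0.0987) or 3 (0.0647) or GRdim/dim replicate 2 (0.0625). Pnp also stands in a gene list that the study drew from these same libraries, so that list is no independent evidence of its direction.

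Pnp2 (ENSMUSG00000068417; chr14:50955992-50964749, plus strand) is a close copy of Pnp that lies within the extent of Pnp's gene model without sharing an exon base with it. Its counts were 8, 11 and 34 in GR+/+ replicates and 20, 17 and 15 in GRdim/dim replicates. At this depth the lowest, 8 counts, has an exact Poisson interval of 3.45 to 15.8, which covers counting error only. In CPM the copy had 0.739 ± 0.309 and 0.918 ± 0.191 (SD, n = 3 each), with overlapping libraries and a log2 fold change of 0.26 (SE 0.49, 95% interval -0.82 to 1.35). Reads on Pnp2 made up 1.94% ± 0.853 of the counts on both genes in GR+/+ lungs and 1.41% ± 0.293 in GRdim/dim lungs (exact permutation test, two-sided, p = 0.4, where 0.1 is the smallest that 3 against 3 can give). The coding sequences of Pnp and Pnp2 have 870 and 918 bases, of which 852 align as identical with 48 gap positions, and the longest identical run has 292 bases. Exon 3 of Pnp (chr14:50950258-50950361, plus strand) and exon 3 of Pnp2 (chr14:50963105-50963208, plus strand), in GRCm38 and the GENCODE M21 transcripts, are shown because they differ at 2 of 104 bases, in capitals.
Pnp exon 3: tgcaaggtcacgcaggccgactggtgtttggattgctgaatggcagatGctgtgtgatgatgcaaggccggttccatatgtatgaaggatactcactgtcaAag
Pnp2 exon 3: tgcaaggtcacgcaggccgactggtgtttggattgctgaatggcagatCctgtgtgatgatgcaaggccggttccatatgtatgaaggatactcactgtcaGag
A read that covers neither capital cannot be assigned to one of the genes from this exon. Of all windows of 31 bases in the transcripts of Pnp, 26.4% also occur in another gene, and 39.0% of those of Pnp2 do, so the counts of Pnp2 are uncertain in both genotypes. Another gene model on the same strand, Gm49342, shares 718 exon bases with Pnp, and 0 to 3 counts per library were assigned to it. With the counts of Pnp, Pnp2 and Gm49342 summed, the log2 fold change was 0.76 and edgeR's adjusted p 0.117. Pnp2 held 1.10% to 2.88% of the counts on Pnp and Pnp2 per library, so the sum could hardly differ from Pnp alone. It does not check how shared reads were assigned.

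**Figure D2:**
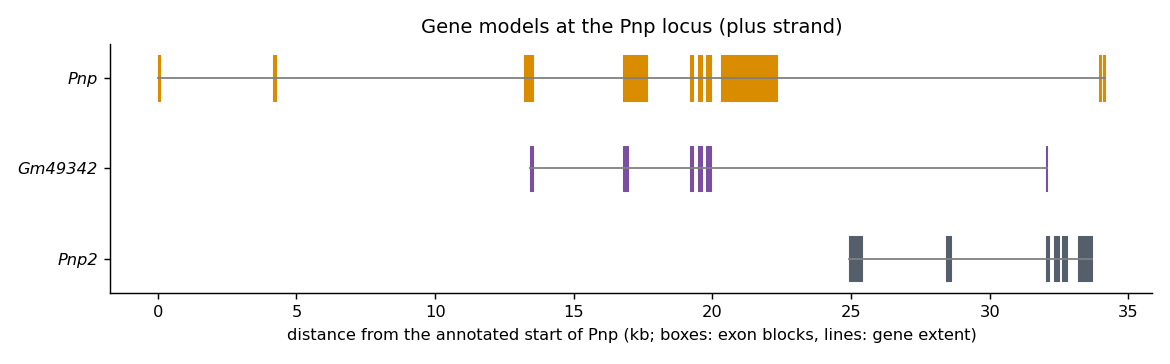
Exons of Pnp, Pnp2 and Gm49342, drawn as boxes against the distance in kb from the start of the Pnp gene model, all read from left to right. The exons of Pnp2 begin 24.9 kb from that start, between exons of the Pnp model and without overlap with them.

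Ada (ENSMUSG00000017697; chr2:163726584-163750239, minus strand), which deaminates adenosine and deoxyadenosine and whose loss causes immunodeficiency, was the other member with an unadjusted p below 0.05. It had 1.61, 2.58 and 2.83 CPM in GR+/+ replicates 1, 2 and 3 (27, 43 and 89 counts). In GRdim/dim replicates 1, 2 and 3 it had 4.42, 3.45 and 5.10 CPM (82, 83 and 79 counts). Every GRdim/dim lung was above every GR+/+ lung, with GR+/+ replicate 1 the lowest of the 6. The means were 2.34 ± 0.641 and 4.32 ± 0.831 CPM (SD, n = 3 each), a 1.83-fold difference (log2 0.87, SE 0.34, 95% interval 0.11 to 1.63). For Ada, edgeR's p was 0.0291 before adjustment and 0.456 after it, and DESeq2's adjusted p was 0.376, so neither called it. Adk (ENSMUSG00000039197; chr14:21052574-21448569, plus strand), which competes with Ada for adenosine and returns it to AMP, had 89.2, 84.5 and 86.4 CPM in GR+/+ and 108.7, 110.2 and 78.3 CPM in GRdim/dim replicates. GRdim/dim replicates 1 and 2 were the highest and replicate 3 the lowest of the 6, so the genotypes overlapped (log2 fold change 0.19, SE 0.17, 95% interval -0.19 to 0.58, adjusted p = 0.802 by edgeR). Per length, the log2 ratio of Ada to Adk was -3.16 ± 0.47 in GR+/+ and -2.43 ± 0.54 in GRdim/dim lungs (SD, n = 3 each). The difference of 0.73 had p = 0.2 by the exact two-sided permutation test, and p = 0.8 after Benjamini-Hochberg adjustment over the 4 ratios computed.

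Ada and Pnp are abundant in lymphocytes, and markers of lymphoid cells and other leukocytes were read beside them. The 8 B cell markers summed to 32.3 to 71.8 CPM in GR+/+ and 72.2 to 115.2 CPM in GRdim/dim libraries, and 8 of 8 had a log2 fold change above 0 (median 0.99). For 8 T cell markers the sums were 48.7 to 98.6 and 80.1 to 104.6 CPM (8 of 8 above 0, median 0.62). NK cell markers summed to 8.25 to 21.5 and 25.8 to 39.3 CPM (7 of 7 above 0, median 1.04). The sums of B and NK cell markers did not overlap between the genotypes (nearest B cell sums 71.8 and 72.2 CPM), while those of T cell markers did. Tcf7 (log2 0.08) was the largest part of the T cell sum, with means of 43.8 and 46.3 CPM. By gene, 3 of 8 B cell, 2 of 8 T cell and 3 of 7 NK cell markers were higher without overlap. None of these markers was lower without overlap, beside 7.77% higher and 7.05% lower of all genes. Neutrophil markers summed to 249 to 484 and 343 to 1098 CPM (6 of 6 tested above 0, median 0.82). Platelet markers summed to 16.3 to 22.4 and 25.8 to 36.6 CPM (4 of 5 tested above 0, median 0.40), and 1 marker, Gp1bb, was at 0 in all libraries. Alveolar macrophage markers summed to 304 to 353 CPM in GR+/+ and 153 to 218 CPM in GRdim/dim libraries (2 of 7 above 0, median -0.39), and most of the sum was Chil3, with means of 253 and 138 CPM. Of these 6 lists edgeR called 0 markers as DEGs, and DESeq2 called 1 each of the neutrophil, platelet and alveolar macrophage lists. Of all genes, edgeR called 0.169% and DESeq2 1.70%. Their part in the values of Ada and Pnp was not tested.

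Among the receptors, edgeR and DESeq2 called 0 of 4, beside 0.169% and 1.70% of all genes. Adora2b had the highest level per length of the 4 in every library. Adora2b (ENSMUSG00000018500; chr11:62248984-62266453, plus strand), the low-affinity receptor that responds where adenosine is abundant, had 16.6, 12.4 and 18.0 CPM in GR+/+ replicates. In GRdim/dim replicates it had 20.3, 16.7 and 22.3 CPM. The highest GR+/+ lung was above the lowest GRdim/dim lung, so the genotypes overlapped. The log2 fold change was 0.33 (SE 0.23, 95% interval -0.17 to 0.83), with an adjusted p of 0.711. Adora2a (ENSMUSG00000020178; chr10:75316877-75334784, plus strand), the high-affinity receptor of leukocytes and vessels, had 4.89 to 6.93 CPM in GR+/+ and 5.93 to 8.14 CPM in GRdim/dim lungs (log2 0.28, SE 0.28, adjusted p = 0.826). Adora1 (ENSMUSG00000042429; chr1:134199223-134235431, minus strand), which inhibits adenylate cyclase, had 6.06 to 9.12 and 5.44 to 8.85 CPM (log2 -0.04, SE 0.29, 95% interval -0.68 to 0.60). For Adora2a, 2 of 3 GRdim/dim libraries were above all GR+/+ libraries and GRdim/dim replicate 1 was within their range, while the ranges of Adora1 covered much the same values. Mybph, on the opposite strand, shares 1162 exon bases with Adora1 and had 1 to 20 counts per library, and the use of strand in counting is not given in the sources used here.

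Adora3 (ENSMUSG00000000562; chr3:105870858-105908926, plus strand), a receptor known from mast cells and granulocytes, had the lowest level of the 4 receptors. Its counts were 22, 25 and 35 in GR+/+ and 49, 50 and 29 in GRdim/dim replicates, or 1.31, 1.50 and 1.11 CPM against 2.64, 2.08 and 1.87 CPM. The genotypes did not overlap in CPM, although they did in raw counts, where GR+/+ replicate 3 was the deepest and GRdim/dim replicate 3 the shallowest library. The log2 fold change of 0.75 (SE 0.38, 95% interval -0.08 to 1.59) did not pass, with an adjusted p of 0.575 by edgeR (unadjusted 0.0714) and 0.683 by DESeq2. Tmigd3 shares 779 exon bases with Adora3 on the same strand, and with both counted together the log2 fold change was 0.61. Mast cell markers summed to 171 to 308 CPM in GR+/+ and 260 to 404 CPM in GRdim/dim libraries (6 of 6 tested above 0, median 0.60). Most of the sum was Kit, with means of 196 and 215 CPM (log2 0.14). Of this list edgeR called 0 markers and DESeq2 called 1, Hdc, beside 0.169% and 1.70% of all genes. The part of mast cells in the value of Adora3 was not tested.

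The 2 members that supply adenosine on the cell surface had negative log2 fold changes that did not pass the test. That of Nt5e took the other sign without GRdim/dim replicate 2 (0.17 by edgeR). Of 9 other ectoenzymes of nucleotide breakdown, 3 had a log2 fold change above 0, among them Alpl (1.19), and 6 below 0. Entpd1 (ENSMUSG00000048120; chr19:40612366-40741602, plus strand), which breaks ATP and ADP down to AMP, had 103.4, 82.9 and 69.3 CPM in GR+/+ replicates and 88.5, 68.6 and 58.2 CPM in GRdim/dim replicates. The ranges overlapped, with the lowest value in a GRdim/dim lung and the highest in a GR+/+ lung (log2 fold change -0.25, SE 0.21, 95% interval -0.71 to 0.22, adjusted p = 0.780). Nt5e (ENSMUSG00000032420; chr9:88327197-88372092, plus strand), which turns AMP into adenosine, had 106.8, 91.0 and 97.3 CPM in GR+/+ replicates. In GRdim/dim replicates it had 134.1, 60.6 and 86.5 CPM, so that replicate 1 was the highest and replicate 2 the lowest of all 6. The SD of Nt5e was 7.97 CPM in GR+/+ and 37.3 CPM in GRdim/dim lungs around means of 98.3 and 93.8, and the log2 fold change was -0.07 (SE 0.25, 95% interval -0.63 to 0.49). The log2 ratio of Entpd1 to Nt5e per length was 0.40 ± 0.23 and 0.29 ± 0.44 (SD, n = 3 each; exact two-sided permutation p = 0.8).

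**Figure D3:**
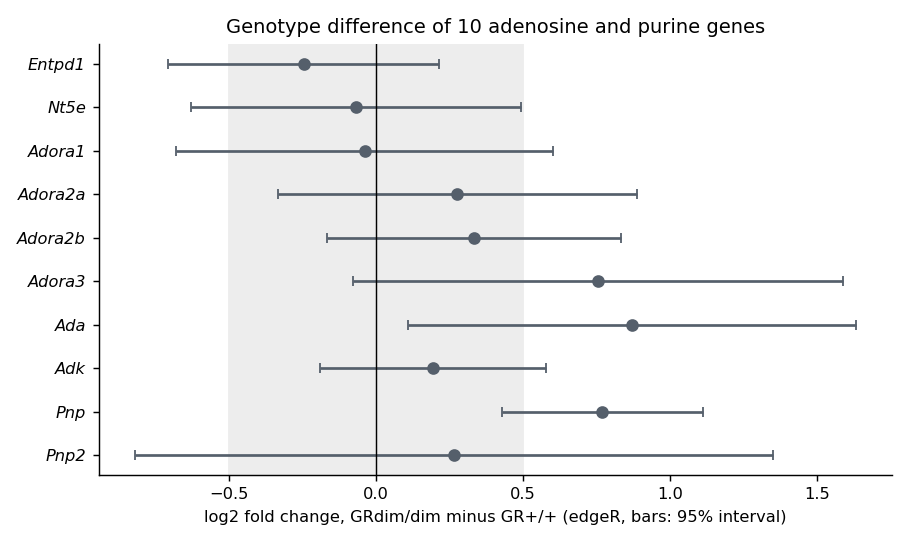
Log2 fold change of each member, GRdim/dim against GR+/+, as a point with its 95% interval computed from the edgeR fit, with a line at 0 and the range within 0.5 of 0 shaded. The intervals, which are not adjusted for the number of genes, lie above 0 for Pnp and Ada (0.43 to 1.11 and 0.11 to 1.63), and those of the other members include it. By edgeR's adjusted p (0.114 and 0.456), neither Pnp nor Ada passed.

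Levels were compared between genes per length as TPM, in which counts were divided by the gene length in the count table and scaled to a total of 1000000 per library. That length counts every annotated exon base of a gene (8526 for Adk and 1845 for Adora2b), whichever transcripts are expressed. The order of genes and the shares of receptors depend on it. Averaged over the 6 libraries, Entpd1 (41.0 TPM), Pnp (36.6), Nt5e (32.3), Adk (31.4) and Adora2b (27.4) formed the upper part of the order. Neighbors there did not hold their places in every library: Entpd1 was above Pnp in 4 of 6, Pnp above Nt5e in 3 of 6, and Nt5e above Adk in 5 of 6. Adora2b, in contrast, was above Adora2a (6.35 TPM) in 6 of 6. Ada (4.72 TPM), Adora1 (3.73), Pnp2 (1.48) and Adora3 (1.36) followed, and Adora1 was above Pnp2 in 6 of 6 libraries and Pnp2 above Adora3 in 3 of 6. Of the summed TPM of the 4 receptors, Adora2b made up 69.5% ± 4.33 in GR+/+ and 71.2% ± 2.34 in GRdim/dim lungs. The share of Adora2a was 16.8% ± 4.40 and 16.2% ± 3.61, and that of Adora1 10.8% ± 0.940 and 8.53% ± 1.22 (SD, n = 3 each). Adora3 held 2.96% ± 0.856 and 3.97% ± 0.887. These shares sum to a whole and were not tested, and an exact permutation test of 3 against 3 could give no p below 0.1. Of the 4 shares, only that of Adora1 did not overlap between the genotypes (10.2% to 11.9% and 7.13% to 9.36%). The CPM of Adora1 itself did overlap (log2 fold change -0.04). The log2 ratio of Adora2a to Adora2b was -2.08 ± 0.49 and -2.16 ± 0.37 (exact two-sided permutation p = 0.8).

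**Figure D4:**
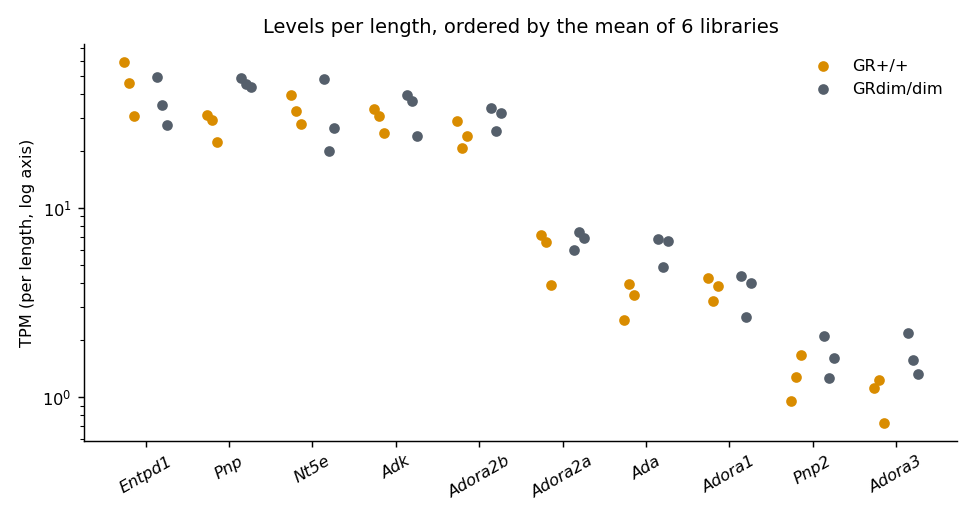
TPM of the 10 members on a log axis in the order of their mean over 6 libraries, with 1 point per library colored by genotype. Entpd1, Pnp, Nt5e, Adk and Adora2b lie between 19.9 and 58.9 TPM, and Adora3 reaches down to 0.729 TPM.

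The promoters of the members were read from RefSeq (GRCm38.p6, 250 bases before the start), where 8 of the 10 had an entry, with 11 windows in all. The start is that of the RefSeq entry, which can differ from the start of the gene model given above. For Pnp, whose model starts at 50931082, and for Adora3 and Nt5e, the only window lay inside the gene model. The bases before those 3 model starts were not searched. GR dimers bind the glucocorticoid response element, a palindrome of inverted half-sites AGAACA that are 3 bases apart, and it and the half-site alone were searched on both strands, as were all other motifs. Neither occurred in the 11 windows, beside 0.00913% and 16.1% of all 32851 promoters of that length. At these shares, 11 windows are too few to tell an absence from the share of all promoters. The search therefore does not show whether these genes have GR sites. The palindrome holds the half-site on each strand, so its matches are a subset of the others. The STAT site TTCNNNGAA, present in 7.02% of all promoters, occurred in Ada, beginning 90 bases before the start. The hypoxia core occurred as ACGTG (16.6% of all) in Adora1 and as GCGTG (28.2%) in windows of Entpd1, Nt5e, Adora1, Adora2b and Adk, and the cyclic AMP element TGACGTCA (1.55%) in none. These are matches of letters, and nothing about binding was measured. The windows of the 2 members with the smallest p are shown 5′ to 3′ on the strand of the gene, Pnp at chr14:50944053-50944302 (plus) and Ada at chr2:163750240-163750489 (minus), with matches to any of the motifs in capitals.
Pnp promoter: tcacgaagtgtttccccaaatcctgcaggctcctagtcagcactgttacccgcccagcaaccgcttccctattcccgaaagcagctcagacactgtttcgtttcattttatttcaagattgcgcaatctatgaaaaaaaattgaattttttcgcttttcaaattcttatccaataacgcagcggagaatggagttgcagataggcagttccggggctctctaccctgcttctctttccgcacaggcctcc
Ada promoter: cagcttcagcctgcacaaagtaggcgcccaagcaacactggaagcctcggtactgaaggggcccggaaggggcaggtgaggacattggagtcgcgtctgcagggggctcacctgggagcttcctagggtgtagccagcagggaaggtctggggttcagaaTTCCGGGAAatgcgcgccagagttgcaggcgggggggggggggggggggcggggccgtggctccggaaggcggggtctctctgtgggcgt
The Pnp window holds no match, and the Ada window holds the STAT site.

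Around the members, 47 other genes of ATP release, ectonucleotide breakdown, nucleoside transport, purine salvage and purinergic receptors were read, of which 37 passed the filter. The log2 fold change was above 0 for 21 of them and below 0 for 16, with a median of 0.04. By edgeR 0 were DEGs, and DESeq2 called 1, Alpl, where it called 1.70% of all genes. At an unadjusted p below 0.05, 6 of the 37 were higher and 0 lower, beside 4.91% and 4.68% of all genes. Libraries did not overlap for 7 of the 37 (18.9%), beside 14.8% of all genes, with 5 higher and 2 lower in GRdim/dim lungs. The 2 lower ones, named after their values were seen, were Enpp1, an ectoenzyme that splits ATP (log2 -0.30, adjusted p = 0.759 by edgeR), and P2rx5, an ATP-gated channel (log2 -0.42, adjusted p = 0.719). Alpl, tissue-nonspecific alkaline phosphatase, which also removes phosphate from extracellular nucleotides, had 6.57, 7.19 and 4.54 CPM in GR+/+ and 10.2, 13.5 and 18.0 CPM in GRdim/dim replicates. All 3 GRdim/dim lungs were above the GR+/+ lungs (log2 1.19, SE 0.29, edgeR adjusted p = 0.214, DESeq2 adjusted p = 0.0125). With 1 library left out at a time, DESeq2 called Alpl without GR+/+ replicate 2 or GRdim/dim replicate 1, that is in 2 of 6 fits. The 5 others had edgeR adjusted p of 0.360 to 0.486. Gda, guanine deaminase, had 72.1 ± 19.6 and 134.7 ± 56.2 CPM with overlapping libraries (log2 0.90), and DESeq2 called it only without GR+/+ replicate 1 or GRdim/dim replicate 2. Cd38, an ectoenzyme that breaks down NAD, had 42.2 ± 12.4 and 67.3 ± 14.6 CPM without overlap (log2 0.67). Nt5c3, a cytosolic nucleotidase, had 26.9 ± 1.63 and 38.4 ± 1.88 CPM (log2 0.51). Panx1, a channel for ATP release, had 7.79 ± 0.410 and 12.1 ± 2.37 CPM (log2 0.63), and Hprt, which salvages hypoxanthine, the base that Pnp frees from inosine, had 71.7 ± 5.99 and 93.8 ± 11.1 CPM (log2 0.39), both without overlap (SD, n = 3 each). Of the 5 tested P2X receptors 1 was above 0, and of the 6 P2Y receptors 5 were, with 0 of either at an unadjusted p below 0.05. Alpl is abundant in neutrophils, whose marker sums are given above with those of the other leukocytes. In replicates 1, 2 and 3, neutrophil sums were 484, 330 and 249 CPM in GR+/+ and 1098, 343 and 479 CPM in GRdim/dim libraries. The part of neutrophils, or of any other cell type, in the value of Alpl was not tested.

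**Figure D5:**
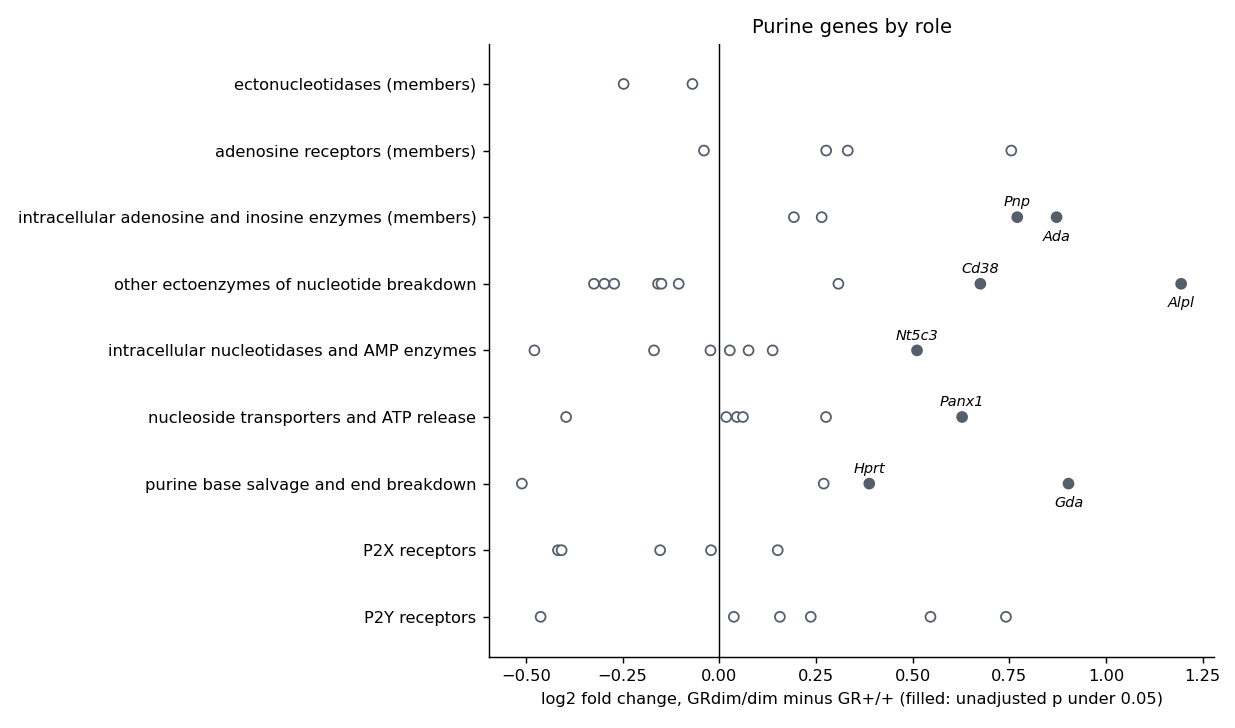
Log2 fold change of the members and of the 37 other purine genes tested, grouped by role, with 1 point per gene, filled where the unadjusted p was below 0.05. The points lie on both sides of 0 in most groups, and Alpl, at 1.19, is among the other ectoenzymes.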

How the data were processed

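The members and the gene lists were chosen with earlier results of these data known. Read counts per gene were deposited by the authors as whole numbers without normalization or pooling, for 6 lung libraries. The submitters' processing notes name the build mm10 and DESeq2, and the aligner, counter and use of strand are not given in the sources used here. Of 54532 genes, 54495 were found in GENCODE M21 (GRCm38), from which coordinates and overlaps were taken. All columns of counts were used.

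Differential expression was fitted in R 4.3.3 with edgeR 4.0.16 (TMM, filterByExpr, robust quasi-likelihood test) over all 16568 genes that passed, with Benjamini-Hochberg adjustment. DESeq2 1.42.0 with default settings was an alternative. The named genes were all members, Nr3c1, and other purine genes with an unadjusted edgeR p below 0.05 or a DESeq2 call. Ratios were tested by exact permutation over the 10 splits. Intervals are at 95%. Those of fold changes were the log2 fold change plus or minus a t quantile times the SE, without adjustment for the number of genes. The SE was computed from the weights and quasi-likelihood dispersion of edgeR's fit. The fit was tested on simulated data. Replicates of a genotype differed by 20.7 to 73.5 chi-square units per degree of freedom, where sampling noise gives about 1, and were used as separate samples. P-values of edgeR and DESeq2 set the genotype difference against the variation between 3 mice per genotype, moderated across genes. Promoters came from RefSeq. The motifs were consensus letters listed for this search, and shared sequence was counted in windows of 31 bases.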

Additional observations from a re-analysis of the deposited data

How the results depend on the processing

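DEGs among all genes numbered 28 in the edgeR fit, 29 with RLE scaling, 522 without a filter on low counts, 29 with at least 10 counts in every library, 34 with the replicate block, 20 with a sex-linked covariate and 274 by DESeq2. Leaving out 1 library gave 4 to 22 by edgeR, lowest without GR+/+ replicate 2, with 12 without GR+/+ replicate 1, 17 without GR+/+ replicate 3 and 14 without GRdim/dim replicate 3. The same by DESeq2, a setting added after the data were seen, gave 182, 192 and 175 without GR+/+ replicates 1 to 3 and 253, 241 and 384 without GRdim/dim replicates 1 to 3. Members called went from 0 to 1 (Pnp) without the filter and by DESeq2, and 0 to 1 over the DESeq2 fits with 1 library left out. Other purine genes called went from 0 to 2 (Alpl and Gda) without the filter, 1 (Alpl) by DESeq2, and 0 to 1 with 1 library left out. Pnp's adjusted p was 0.0231 without the filter and 0.241 with the sex-linked covariate. Of 181 alternatives of member fold changes, 171 kept direction and side of the threshold, 4 passed it (all Pnp) and 6 took the other sign. Without GRdim/dim replicate 2 Nt5e was 0.17 by edgeR and 0.16 by DESeq2 (lowest -0.41 by edgeR, without GRdim/dim replicate 1). Adora1 was 0.11 without GR+/+ replicate 3 and 0.15 without GRdim/dim replicate 2 by edgeR, and 0.11 and 0.14 by DESeq2 (-0.18 by edgeR without GRdim/dim replicate 3, and lowest at -0.19 with the sex-linked covariate). The Entpd1 to Nt5e difference was 0.026 and 0.011 without GRdim/dim replicate 1 or 3 (lowest -0.36), and that of Adora2a to Adora2b 0.15 and 0.10 (lowest -0.34) without GR+/+ replicate 2 or GRdim/dim replicate 1. The causes were not tested. Pnp2 had no value with at least 10 counts in every library, since 1 library held 8. The replicate numbers were not used as pairs in the main fit. After each gene's genotype mean was subtracted from its log2 CPM, same-numbered libraries correlated at 0.22, 0.04 and -0.05. Libraries of the 2 genotypes with different numbers correlated at -0.27 to 0.19. The replicate block left Pnp at 0.77 (edgeR's adjusted p 0.163). Depth limits Pnp2, Adora3 and Ada, whose counts were below 100 in every library.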
